A study of Mus musculus with 21 samples.

Results

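The scaffold of the excitatory postsynaptic density was examined in the hippocampus of adult mice through the 10 genes that encode its Shank, Dlgap, Dlg4 and Homer proteins. The members were taken by symbol (Dlg4, Dlgap1 to Dlgap4, Shank1 to Shank3, Homer1 and Homer2) from the 55487 genes of the count table, and all 10 passed the filter on low counts that left 18146 genes for the tests. Libraries were made from poly-A RNA of the whole hippocampus, with 1 library per mouse. All mice were wild-type C57BL/6 males killed at 10 weeks of age. In the maternal separation (MS) condition, intact litters were taken from the dam for 4 hours daily from postnatal day 10 through 17 and most of their nesting material was removed, whereas litters under standard rearing (SR) stayed with the dam. There were 9 MS and 12 SR libraries. Whole litters received 1 condition, and because no label gives the litter, each mouse carries the letter of its set of 3 successive animal numbers, of which MS has 3 (A, B and C) and SR has 4 (D, E, F and G). Littermates share a dam and a cage, so the p-values measure the spread between these mice and not between independent litters.

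Scaffold proteins stack in layers beneath the receptors of glutamatergic synapses. The Dlg4 product holds glutamate receptors and adhesion molecules at the membrane, Dlgap proteins bind its guanylate kinase-like domain, Shank proteins bind the tails of the Dlgap proteins, and tetrameric Homer proteins link Shank to metabotropic glutamate receptors and to calcium channels of the endoplasmic reticulum. Mutations of several of these genes, Shank3 among them, are known for autism-related and compulsive behaviour in people and mice, and most of them have long transcripts.

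The joint between the Dlgap layer and the Shank layer is shown first, because it is the contact that ties these families together. All 4 Dlgap genes end their reading frame in nearly the same bases, which encode the tail that the PDZ domain of Shank binds. The last 30 coding bases before the stop codon are printed here, 5′ to 3′ on the + strand, from GENCODE M21 transcripts (build GRCm38) of Dlgap1 (chr17:70818202-70818231), Dlgap2 (chr8:14846676-14846705), Dlgap3 (chr4:127236336-127236365) and Dlgap4 (chr2:156762871-156762900). Capitals mark bases that are the same in all 4 genes.
Dlgap1: ATcTAcaTCCCcGAGGCgCAGACccGGCTc
Dlgap2: ATcTAcaTCCCtGAGGCcCAGACgcGGCTc
Dlgap3: ATcTAcaTCCCcGAGGCcCAGACcaGGCTg
Dlgap4: ATtTAtgTCCCcGAGGCcCAGACcaGGCTc
Of the 30 bases, 22 were shared by all 4 genes, and pairs of genes shared between 24 and 27.

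Homer1 makes 2 kinds of mRNA that differ in what they do. The long form encodes a protein that joins into tetramers and bridges Shank to its partners, and the short form, induced by neuronal activity, encodes a monomer that binds the same partners without bridging them. Both are shown across the point where they part, with 24 shared bases in lower case and the next 31 bases in capitals. The short form (chr13:93356056-93356110, + strand) reads into the intron and stops after these 31 coding bases, whereas the long form joins the next exon, so that its window runs over a spliced intron from 93356056 to 93387554.
Homer1 short: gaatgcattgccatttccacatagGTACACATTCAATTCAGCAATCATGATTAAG
Homer1 long: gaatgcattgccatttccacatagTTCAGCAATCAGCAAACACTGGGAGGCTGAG
The forms share their first 527 coding bases. The deposited counts hold 1 value per gene and do not separate the forms. Of the 11976 exonic bases annotated for Homer1, 4383 (36.6%) are in the short form and in no other annotated transcript of the gene, and reads of both forms enter the Homer1 value.

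The 20 libraries used in the tests had total counts of 17276810 to 26450808. An MS library (A2, total 30449055) stood apart on the first component of a PCA and was left out, leaving 8 MS and 12 SR mice, since the study removed 1 outlier that it does not name. A2 held a sum of 2024 CPM (counts of a gene scaled to the normalized total of its library) over 8 striatal marker genes, against 86.6 to 700 CPM in the other MS mice and 92.2 to 437 CPM in SR, and a sum of 116 CPM over 5 dentate granule cell markers, against 240 to 483 CPM in the others. The scaffold genes of A2 were also unlike those of the other mice. Its Dlgap3 level was 734 CPM where the others had 360 to 486 CPM, its Dlgap1 level was 451 CPM where they had 570 to 797 CPM, and its Homer2 level was 62.2 CPM where they had 81.2 to 118 CPM. The MS mouse B1 (700 CPM) and the SR mouse E2 (437 CPM) had the highest striatal sums of those kept.

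Between MS and SR, none of the 10 scaffold genes passed the test, and the differences were small. Of the 10 genes, 8 had a lower and 2 a higher fitted level in MS, against 49.7% of all genes tested with a lower level. Their median log2 fold change (MS against SR) was -0.05, where that of all genes was 0.00. With edgeR's quasi-likelihood test and Benjamini-Hochberg adjustment over all genes, 0 of 10 had an adjusted p under 0.05 (background 0.011%, which is 2 of 18146 genes). At an unadjusted p under 0.05, 3 of 10 were lower in MS (background 4.92%) and 0 were higher. These 3 genes were Dlgap1, Dlgap2 and Shank1. DESeq2 called 0 of 10 after adjustment (background 0.325%, over 39023 genes with any count rather than 18146). With the counts of each set summed to 1 value, the same 3 genes were lower at an unadjusted p under 0.05 (background 3.08%, over 21752 genes). Over all 21 libraries, A2 included, Dlgap1 alone of the 10 was (background 4.87%), and Shank1 had an unadjusted p of 0.0810. In bulk tissue, fewer cells of a type and less RNA per cell cannot be told apart.

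**Figure D1:**
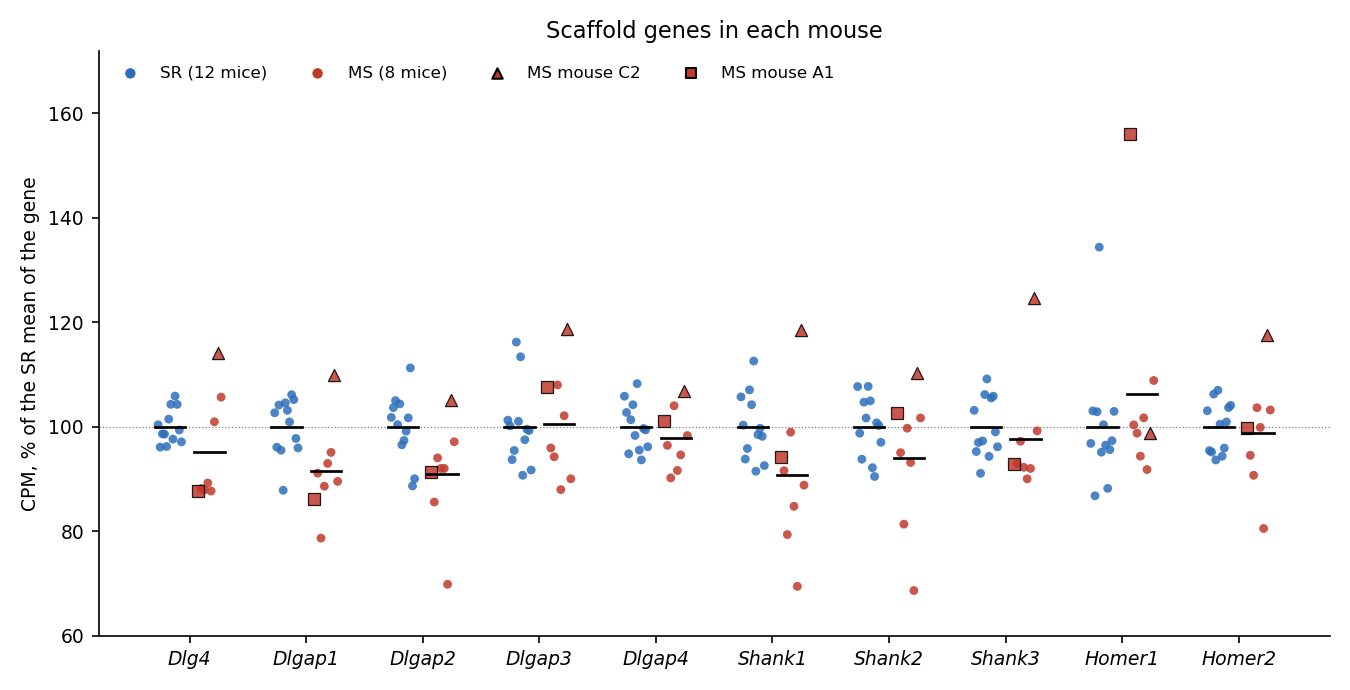
CPM of each scaffold gene in each mouse as a percentage of the mean of the 12 SR mice of that gene, with MS and SR mice side by side and 1 point per mouse (A2 left out); the y axis does not start at 0. MS and SR points overlap for all 10 genes, and the MS mouse C2 is the highest MS point for every gene except Homer1, where A1 is.

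Dlg4 encodes the membrane-associated guanylate kinase that anchors the scaffold under the receptors. Its level ran from 723 to 941 CPM in MS (median 732 CPM, n = 8) and from 793 to 873 CPM in SR (median 817 CPM, n = 12). In 5 of the 8 MS mice it was below every SR mouse, and in the other 3, which are the whole of set C, it lay within or above the SR mice. The means were 785 ± 85.4 CPM in MS and 825 ± 27.4 CPM in SR (SD), and the log2 fold change was -0.07 (SE 0.0472, 95% interval -0.17 to 0.03, edgeR adjusted p = 0.586). Without C2 it was -0.11.

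The Dlg4 level divided the MS mice by their animal numbers. The numbers fall into a lower range (sets A, B, D, E and F) and a higher range (sets C and G). In the lower range the 5 MS mice had 723 to 736 CPM (727 ± 5.25 CPM) and the 9 SR mice had 793 to 873 CPM (824 ± 28.3 CPM), with no overlap. In the higher range the 3 MS mice had 833 to 941 CPM (882 ± 54.8 CPM) and the 3 SR mice had 801 to 860 CPM (827 ± 30.2 CPM). The SR sets thus lay close to each other in both ranges, and MS set C lay above the 2 other MS sets. The library left out, A2, is of set A, and its Dlg4 level was 928 CPM, far above the other 2 mice of that set (724 and 727 CPM), so 1 set held both a high and a low level.

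A fit of the lower range alone gave Dlg4 a log2 fold change of -0.18 with an edgeR adjusted p of 0.0206, and a fit of all mice other than set C gave -0.18 with an adjusted p of 0.00631. The higher range alone gave 0.09 (adjusted p = 0.937). Leaving out set C removes the highest Dlg4 levels of the MS mice used, so a lower Dlg4 value in such fits was fixed in advance. The background differed between these fits. In the lower range 2 of 10 scaffold genes were called, Dlg4 and Dlgap2 (background 1.25%), without set C 2 were called, Dlg4 and Dlgap1 (background 1.83%), and in the higher range 0 were (background 0%, with 810 of 17940 genes at an unadjusted p under 0.05). Levels of MS below every SR mouse in the lower range were seen for 2 of 10 genes, Dlg4 and Dlgap2, where 0.557% of all genes had them. The difference between the ranges was itself tested as an interaction of rearing and range. For Dlg4 this gave 0.27 on the log2 scale with an adjusted p of 0.357, so the difference between ranges was not called for it. At an unadjusted p under 0.05, Dlg4 alone of the 10 genes was found, a share near the background of 8.67%. Its own unadjusted p in this edgeR test was far under that threshold (0.000597). After adjustment, 0 of 18146 genes were called for the interaction. Range and set cannot be told apart in MS, where the higher range is set C alone.

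**Figure D2:**
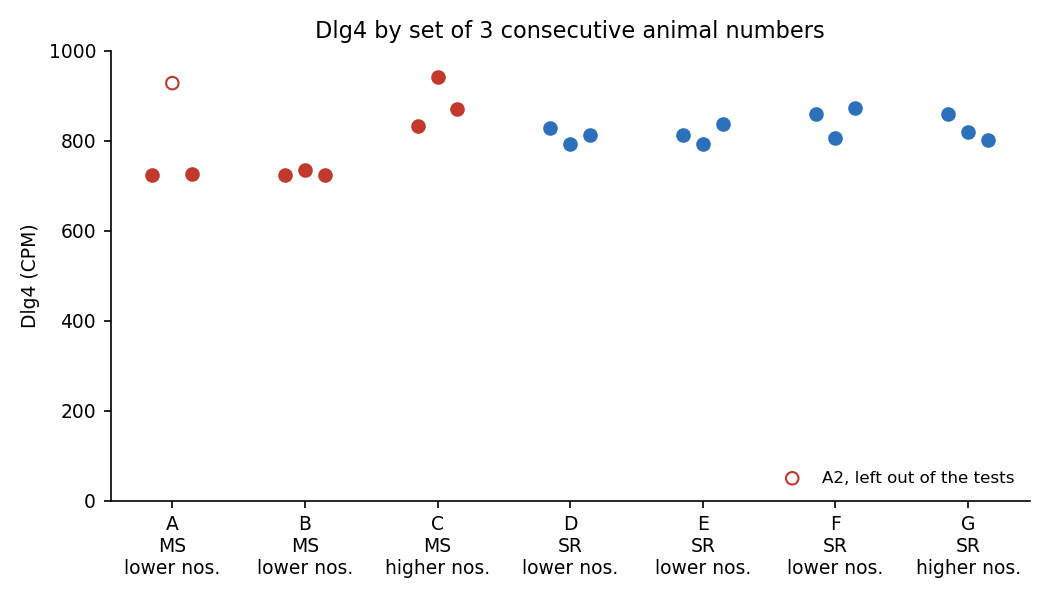
Dlg4 level (CPM, axis from 0) of each mouse by its set of 3 consecutive animal numbers, with the rearing and number range of the set under it and the left-out MS mouse A2 as an open point. The used mice of MS sets A and B lie at 723 to 736 CPM, below all SR mice at 793 to 873 CPM, and MS set C lies at 833 to 941 CPM.

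The Dlgap genes encode the adaptor layer between the Dlg4 product and Shank, and none of the 4 passed the test. The fitted values were -0.13 for Dlgap1, -0.14 for Dlgap2, 0.01 for Dlgap3 and -0.03 for Dlgap4 on the log2 scale, and differences between the genes were not tested. Dlgap1, the member with the most exonic sequence (17890 bases, longer than 98.9% of genes tested), had 570 to 797 CPM in MS (median 654 CPM) and 636 to 769 CPM in SR (median 737 CPM). Its level was under the SR median in 7 of 8 MS mice, and the exception was C2, the highest of all 20 mice. The log2 fold change had an SE of 0.0485 and a 95% interval of -0.23 to -0.03, with an unadjusted p of 0.0144 and an edgeR adjusted p of 0.311. Without set C it was -0.19 (adjusted p = 0.0306), and in the higher range alone it was -0.02. Set C holds C2 and had the highest Dlgap1 mean of the MS sets, so a lower value without that set was fixed in advance.

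Dlgap2 had the lowest level of the Dlgap genes per length. Its level ran from 52.2 to 78.6 CPM in MS (median 68.8 CPM) and 66.3 to 83.2 CPM in SR (median 75.5 CPM). Again 7 of 8 MS mice were under the SR median and C2 was the exception. The mean was 68.0 ± 7.62 CPM in MS and 74.8 ± 4.72 CPM in SR, and the log2 fold change had an SE of 0.0548 and a 95% interval of -0.25 to -0.02, with an unadjusted p of 0.0191 and an edgeR adjusted p of 0.331. In the lower range the 5 MS mice had 64.0 to 70.3 CPM and the 9 SR mice 72.2 to 78.5 CPM, without overlap, and the fit of this range gave -0.15 with an adjusted p of 0.0384. The left-out mouse A2, whose number is in this range, had 85.8 CPM, above all other mice, and over all 21 libraries the log2 fold change of Dlgap2 was -0.10 (unadjusted p = 0.127, adjusted p = 0.552). Without C1 it was -0.09. The higher range gave -0.09, where MS ran from 52.2 to 78.6 CPM and SR from 66.3 to 83.2 CPM, so the direction was the same with a far wider spread.

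Dlgap3, which is known from mice without it for excessive grooming, had the shortest exonic length of the members (4521 bases). Its level was 360 to 486 CPM in MS (median 406 CPM) and 372 to 476 CPM in SR (median 407 CPM), and 4 of 8 MS mice were on each side of the SR median. The log2 fold change of 0.01 had a 95% interval of -0.10 to 0.12 (edgeR adjusted p = 0.973), and its sign turned in 11 of 39 alternative analyses. Dlgap4 had 315 to 373 CPM in MS (median 339.8 CPM) and 327 to 378 CPM in SR (median 347 CPM). The groups covered nearly the same range, with an interval of -0.11 to 0.05 and an adjusted p of 0.799.

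The Shank genes encode the deepest layer, large proteins that bind Dlgap tails, Homer and the actin cytoskeleton. Shank1 had 582 to 993 CPM in MS (median 756 CPM) and 766 to 943 CPM in SR (median 830.2 CPM). The MS mice spread far beyond SR on both sides: 4 of 8 were below every SR mouse, and C2 was above all of them. The mean was 760 ± 122 CPM in MS and 838 ± 53.4 CPM in SR, and the log2 fold change of -0.14 (SE 0.0677) had an unadjusted p of 0.0491 and an edgeR adjusted p of 0.432. It was -0.09 without C1 (unadjusted p = 0.134) and -0.21 without C2 (unadjusted p = 0.00139), and the unadjusted p was not under 0.05 in 13 of the 20 fits that left out 1 mouse.

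Shank2 had 199 to 319 CPM in MS (median 282 CPM) and 262 to 312 CPM in SR (median 291 CPM). The lowest and the highest level of the 20 mice were both in MS, in C1 and C2. Its log2 fold change was -0.09 (SE 0.0630, 95% interval -0.22 to 0.04, edgeR adjusted p = 0.620), and without C1 it was -0.03. Shank3 had 347 to 481 CPM in MS (median 358 CPM) and 351 to 421 CPM in SR (median 378 CPM), with C2 alone above the SR mice. The log2 fold change was -0.03 (95% interval -0.14 to 0.07, adjusted p = 0.848), and without C2 it was -0.09. It was above 0 in the higher range alone (0.07).

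The Homer genes encode the linkers between Shank and its partners, and the 95% intervals of both spanned 0. Homer2 had 81.2 to 118 CPM in MS (median 101 CPM) and 94.4 to 108 CPM in SR (median 101.5 CPM), with C1 and B1 below and C2 above all SR mice. The log2 fold change of -0.02 had a 95% interval of -0.12 to 0.08 (edgeR adjusted p = 0.925). Homer1 had 83.8 to 142 CPM in MS (median 90.9 CPM) and 79.2 to 123 CPM in SR (median 88.6 CPM). Its log2 fold change of 0.09 (SE 0.0875, 95% interval -0.09 to 0.27, adjusted p = 0.743) was the highest of the 10 genes, and it rested on mouse A1 (142 CPM), where the next MS mouse had 99.4 CPM. Without A1 the value was -0.02.

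**Figure D3:**
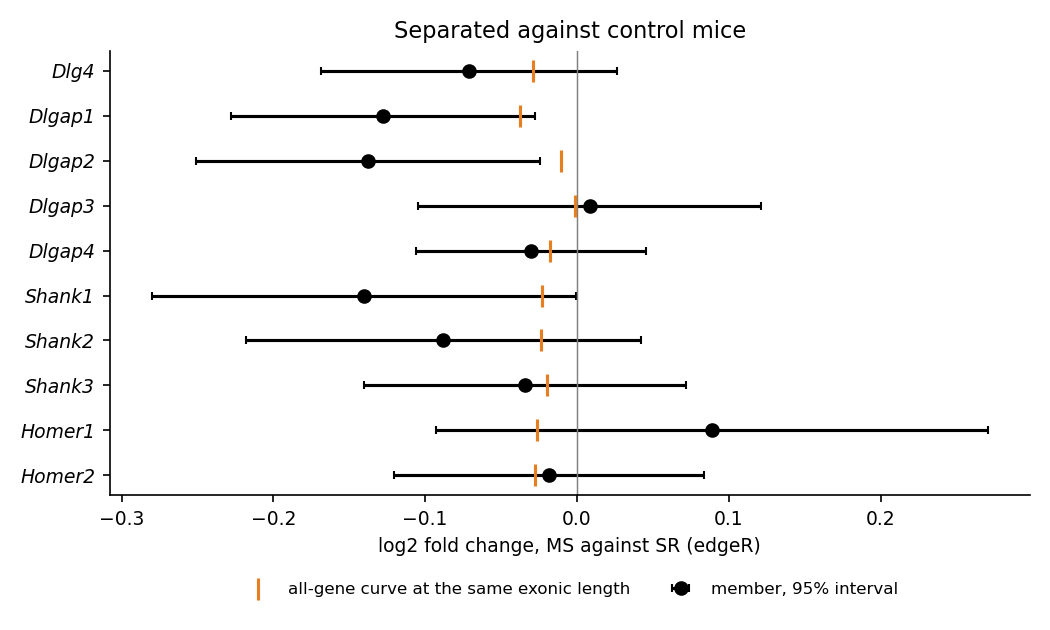
Log2 fold change of MS against SR for each scaffold gene (points, edgeR, 8 MS and 12 SR mice) with its 95% interval (bars). Values lie between -0.14 for Shank1 and 0.09 for Homer1, and the intervals of Dlgap1, Dlgap2 and Shank1 end below 0, although none of the 10 genes passed after adjustment over all genes.

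Single MS mice stood out for many scaffold genes at once. C2 was the highest MS mouse for 9 of 10 genes, where it was for 14.7% of all genes tested, and it was above every SR mouse for 7 of 10, where it was for 10.3% of all genes. C1 was the lowest MS mouse for 5 of 10 genes (20.7% of all genes). Both are of set C, so a set held the extremes in both directions. Without C2 the median of the 10 log2 fold changes was -0.10, and 5 of 10 genes (Dlg4, Dlgap1, Dlgap2, Shank1 and Shank3) were lower at an unadjusted p under 0.05 (background 7%), although 0 were called after adjustment (lowest adjusted p = 0.0571, Dlgap1). C2 stood out by its high levels of these same genes, so lower values without it were fixed in advance. The background does not correct for that choice. C2 also had the lowest oligodendrocyte marker sum of the MS mice (3628 CPM, others up to 7107 CPM) and the lowest choroid plexus marker sum (51.6 CPM, others up to 4136 CPM). It had the highest sums of the MS mice for neuron markers (4762 CPM), dentate granule cell markers (465 CPM), CA pyramidal neuron markers (680 CPM) and the 30 other postsynaptic density genes (18655 CPM, above every SR mouse). C1 had the lowest neuron sum (4145 CPM) and the highest oligodendrocyte sum (7107 CPM) of the MS mice. C1 was also lowest of the MS mice, and below every SR mouse, in 2 sums of related genes. The relatives of the scaffold families (Dlg1, Dlg2, Dlg3 and Homer3) summed to 622 CPM in C1 (SR from 673 CPM). The listed partners of Homer summed to 1192 CPM (SR from 1247 CPM). The sums of C1 given next were not low. Its dentate granule cell sum was 428 CPM (MS median 361 CPM), and its CA pyramidal neuron sum was 629 CPM (MS median 628 CPM). Its sum over the 30 other postsynaptic density genes was 15212 CPM (MS median 14950 CPM). Both mice thus had extremes beyond the 10 scaffold genes, but C1 was low in some of the neuronal and postsynaptic lists and not in others. The part of these cell types in the extremes of C1 and C2 was not tested.

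The levels of some scaffold genes varied together from mouse to mouse, as a description over 20 mice with the group means removed. Shank2 and Homer2 were the closest pair (Pearson r = 0.878), followed by Shank1 and Shank2 (r = 0.862). Of the 45 pairs, 16 had an r over 0.5 and 3 had an r under 0, all 3 with Homer1. The lowest was that of Dlgap1 and Homer1 (r = -0.498). The share of such pairs among other genes is not given here. C1 and C2, extreme for many of the 10 genes, are among the mice, and their part in these correlations was not tested. Other genes were compared with the mean z-score of the 10 members without removing the group means, so those values include the difference between MS and SR. Among the genes whose level was most like the mean z-score of the 10 members were Epb41l1, which encodes a cytoskeletal protein of the band 4.1 family (r = 0.945), Trak1, an adaptor of mitochondrial transport (r = 0.921), Ube3b, a ubiquitin ligase (r = 0.904), and Unc13a, a presynaptic priming factor (r = 0.888). All 4 have exonic lengths over the median of all genes, between 5294 and 12623 bases. The mice share library depth and tissue composition with every gene compared here, so these values are descriptions only.

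Compared per kb of exonic sequence in the SR mice, Dlgap3 had the highest level (90.6 ± 7.06 CPM per kb, SD, n = 12), followed by Shank1 (79.7 ± 5.08 CPM per kb) and Dlg4 (62.2 ± 2.07 CPM per kb). The SR ranges of Dlgap3 and Shank1 overlapped, and that of Dlg4 lay below both. Shank3 (42.0 ± 2.41 CPM per kb), Dlgap4 (41.3 ± 1.91 CPM per kb) and Dlgap1 (40.5 ± 2.20 CPM per kb) followed with overlapping ranges. Shank2 (26.9 ± 1.56 CPM per kb) and Dlgap2 (12.2 ± 0.767 CPM per kb) each stood apart from their neighbours. Homer2 (7.99 ± 0.390 CPM per kb) and Homer1 (7.62 ± 0.918 CPM per kb) were lowest and overlapped. The order depends on the length used: per kb of the longest coding transcript, Dlg4 came first (130.4 CPM per kb), before Dlgap1 (101 CPM per kb), Dlgap3 (97.4 CPM per kb) and Shank1 (85.3 CPM per kb). The longest Dlg4 transcript (6326 bases) has only 819 coding bases, where another of 5472 bases has 2163.

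Length was then examined, since the scaffold genes are long. It was taken as exonic length, the union of all annotated exons of a gene, which can exceed every single transcript. The longest coding transcript had 7173 bases for Dlgap1, 6326 for Dlg4 and 5713 for Homer1. Those of Dlg4 and Homer1 have only 819 and 558 coding bases, and that of Homer1 is its short form. By the longest coding transcript the members ranked between the 67.7th percentile of genes (Dlgap3) and the 98.2th (Homer2). The median exonic length of the 10 scaffold genes was 10641 bases, against 3894 bases over all genes tested, and 6 of the 10 were among the longest 10% of genes (9330 bases or more). Across all genes, the median log2 fold change ran from 0.04 in genes of 1207 to 1932 bases to -0.03 in the longest 10%, of which 65.3% were lower in MS and 8.77% were lower at an unadjusted p under 0.05. A smooth curve of fold change on length passed through a median of -0.02 at the lengths of the scaffold genes. Relative to the curve, 7 of 10 lay below it and their median was -0.03, where the median without the curve was -0.05. Dlgap2 (-0.13), Shank1 (-0.12) and Dlgap1 (-0.09) lay farthest below the curve, and Homer1 lay above it (0.12). Among the 10 genes, log2 fold change and log2 length had a Pearson r of -0.135, given as a description over genes that share their mice.

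**Figure D4:**
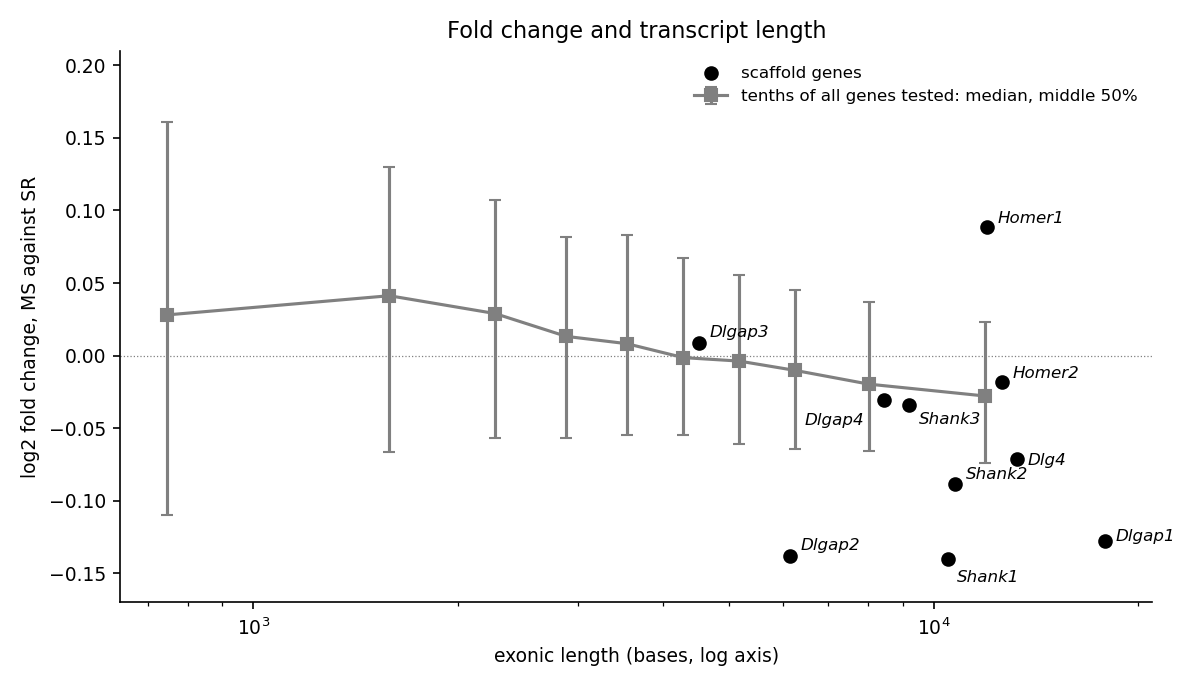
Log2 fold change of MS against SR (edgeR) by exonic length in bases (log axis), with each scaffold gene as a black point and all genes tested as grey squares, 1 for each 10% of genes in order of length, at their median length and median fold change, with bars over the middle 50%. The squares run from 0.03 and 0.04 for short genes to -0.03 for the longest, and Dlgap2, Shank1, Dlgap1 and Shank2 lie below the bars of genes of their length.

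When the length curve of each library was taken out as an offset, the scaffold median was -0.03, 7 of 10 genes were lower, and Dlgap2 alone had an unadjusted p under 0.05 (background 4.7%). With it Dlgap1 went from -0.13 to -0.09 and Dlg4 from -0.07 to -0.04, whereas Dlgap2 went from -0.14 to -0.13 and Shank1 from -0.14 to -0.12. The slope of log2 CPM on log2 exonic length, computed for each mouse over all genes other than the 10, was 1.03 ± 0.0272 in MS and 1.04 ± 0.0102 in SR. The difference of -0.00909 was smaller than the spread between mice (exact permutation test over 125970 splits, two-sided, p = 0.319). With the longest coding transcript as the length the exact permutation p was 0.0534. Without C3, the mouse with the highest slope (1.08), the difference was -0.0159 and the exact permutation p was 0.0273, so that mouse decides the side of the threshold. C1 had the lowest slope (0.987), and among the MS mice it had the lowest level of 5 scaffold genes.

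Across the 20 mice, none of the 10 levels was related to the length slope after Benjamini-Hochberg adjustment over the 10 relations. The closest was Dlgap2 (Pearson r = 0.615, permutation p = 0.0101, adjusted p = 0.101), and without the 2 mice farthest from the median slope r was 0.332. For Shank2, r was 0.532 with all mice and -0.000462 without those 2 mice, so the relation rests on them.

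Homer1 was set beside the immediate early genes, because its short form is one of the transcripts that neuronal activity induces. A score was taken as the mean z-score of log2 CPM over 10 genes (Fos, Fosb, Junb, Egr1, Egr2, Egr4, Npas4, Nr4a1, Ier2 and Dusp1). Of these, 8 had a higher and 2 a lower fitted level in MS. Their median was 0.10 on the log2 scale, and edgeR called 0 of 10, with 0 at an unadjusted p under 0.05. The 2 mice with the highest scores, A1 in MS (2.28) and E2 in SR (1.96), also had the highest Homer1 levels of their groups, 142 and 123 CPM. In the left-out mouse A2, Homer1 was higher still (150 CPM), and so was the sum of the 10 immediate early genes (793 CPM, against 679 CPM in A1 and 648 CPM in E2).

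Over all 20 mice, Pearson r of Homer1 with the score was 0.759 (permutation p = 0.00106) and Spearman rho was 0.412 (permutation p = 0.0713). Within MS r was 0.857 (n = 8, permutation p = 0.0703) and within SR it was 0.686 (n = 12, permutation p = 0.0203). Without A1 and E2, r was 0.174 (permutation p = 0.491), so among the 20 mice the relation rests on those 2. Over all 21 libraries r was 0.836 and rho 0.499 (permutation p = 0.0227), and without the 2 mice then farthest in score, A2 and A1, r was 0.601 (permutation p = 0.0139) with E2 still included. A1 and E2 also had the lowest summed CA pyramidal neuron markers of the 20 mice (470 CPM in A1 and 465 CPM in E2, where the other mice reached 685 CPM) and the lowest dentate granule cell sums (254 CPM and 240 CPM), and their part in the Homer1 level was not tested.

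**Figure D5:**
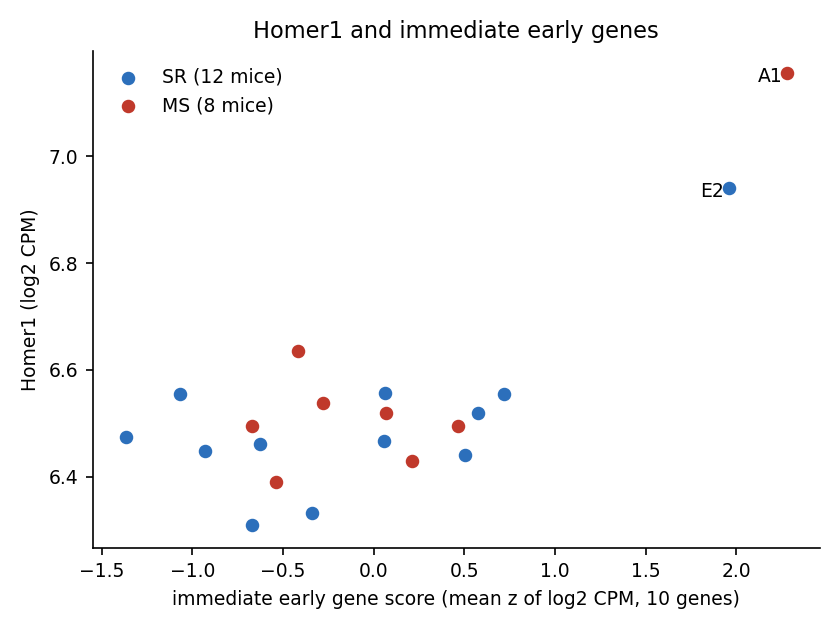
Homer1 level (log2 CPM) against the immediate early gene score (mean z-score of log2 CPM of 10 genes) in each of 20 mice, coloured by rearing. A1 and E2 lie to the upper right with scores of 2.28 and 1.96, and the other 18 mice show no clear trend (r = 0.174).

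Other genes of the same protein network were taken from lists chosen with earlier results of these data known. Of the relatives of the scaffold families, Dlg1, Dlg2, Dlg3 and Homer3, 3 had a lower and 1 a higher fitted level, with Dlg2 at -0.07, and 0 of 4 were called. Of the partners of Homer, 4 are given here, and all 4 had lower fitted levels, from -0.06 for Dnm3, a dynamin of endocytosis at the spine, to -0.01 for Itpr1, the inositol trisphosphate receptor, with the glutamate receptor Grm5 at -0.05 and the actin-binding Dbn1 at -0.03. None of these 4 were called either.

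Among 30 other postsynaptic density genes, 22 had a lower and 8 a higher fitted level (median log2 fold change -0.07), and edgeR called 0 of 30, with 9 lower (background 4.92%) and 2 higher (background 6.62%) at an unadjusted p under 0.05. The lowest values were those of Tnik, a kinase that regulates actin (-0.17, adjusted p = 0.134), Grip1, a PDZ adaptor of AMPA receptors (-0.17, adjusted p = 0.366), and Kalrn, an exchange factor for small GTPases in spines (-0.16, adjusted p = 0.192). The highest were those of Dynll2 (0.13, adjusted p = 0.316) and Dynll1 (0.12, adjusted p = 0.377), the light chains that tie Dlgap proteins to motor proteins, and Arc, an activity-induced gene (0.13, adjusted p = 0.894). The 22 genes with a lower value had a median exonic length of 8594.5 bases, and the 8 with a higher value one of 3852.5 bases. In the fit without set C, 7 of these 30 genes were called (background 1.83%). Set C holds C2, whose sum over these 30 genes (18655 CPM) was the highest of the MS mice. Leaving it out therefore lowers the MS sum in advance, and the background does not correct for that choice.

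General neuron markers had fitted values of the same sign as most scaffold genes. All 5 (Syt1, Snap25, Rbfox3, Map2 and Tubb3) had a lower fitted level in MS, with a median log2 fold change of -0.08. Syt1 (-0.13) and Snap25 (-0.11) had an unadjusted p under 0.05, and 0 of 5 were called. Their summed level was 4145 to 4762 CPM in MS (median 4486 CPM) and 4423 to 5072 CPM in SR (median 4767 CPM). The markers of hippocampal neurons were similar, with 4 of 5 dentate granule cell markers (median -0.09) and 4 of 5 CA pyramidal neuron markers (median -0.05) lower in the fit, and 0 of either called. The medians of the astrocyte, oligodendrocyte, microglia and endothelial markers were between 0.01 and 0.05. All 5 choroid plexus markers (median 0.92) and all 8 striatal markers (median 0.47) had higher fitted levels in MS and 0 of either were called, with choroid sums of 51.6 to 4136 CPM in MS and 27.8 to 4459 CPM in SR. Striatal sums were 86.6 to 700 CPM in MS (median 125 CPM) and 92.2 to 437 CPM in SR (median 113 CPM). The highest of the MS mice was B1, and the next, A1, had 167 CPM. The part of these cell types in the scaffold values was not tested.

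Several members share bases with an annotated gene on the other strand, and whether the counting used the strand is not given in the sources used here. The overlapping genes that were tested had low levels. 1700008O03Rik, which overlaps Shank1 over 339 exonic bases, had 1.78 ± 0.229 CPM in MS and 1.57 ± 0.389 CPM in SR. Gm15609, which overlaps Shank3 over 271 exonic bases, had 0.996 ± 0.267 CPM in MS and 1.17 ± 0.310 CPM in SR. Gm14372 in Shank2 (0.607 CPM in SR), and 5031415H12Rik (2.90 CPM) and AC079441.1 (1.37 CPM) in Dlgap1, were equally low, and all 5 had an adjusted p over 0.6. AC079441.1 shares 92 exonic bases with Dlgap1, whereas Gm14372 and 5031415H12Rik share 0 exonic bases with their member. Homer2 shares 525 exonic bases with Gm44570, and Dlgap4 shares 24 with 4930405A21Rik. Levels of Gm44570 and 4930405A21Rik are not given here.

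The genes lie apart from each other in the genome. In GRCm38, Dlg4 lies at chr11:70016942-70047522, Shank3 at chr15:89499623-89560261, Dlgap3 at chr4:127169204-127237022 and Homer1 at chr13:93299635-93405129, all on the + strand. Dlgap1 spans 852341 bases (chr17:69969073-70821413, + strand), Dlgap2 751816 bases (chr8:14095865-14847680, + strand) and Shank2 422567 bases (chr7:144001928-144424494, + strand). Shank1 (chr7:44310253-44360572, + strand) and Homer2 (chr7:81600481-81707527, - strand) lie on the same chromosome as Shank2, and Dlgap4 lies at chr2:156613705-156764363 on the + strand. The genes of the longest span, Dlgap1 and Dlgap2, were both among the 3 at an unadjusted p under 0.05. Shank2, the next longest, had an edgeR unadjusted p of 0.175, and Shank1, also among the 3, has a span of 50320 bases. A relation of span to fold change was not tested.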

How the data were processed

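The authors sequenced poly-A libraries as paired-end reads on a NovaSeq6000, aligned them with STAR (2.7.3a) to GRCm38 and counted reads per Ensembl gene with featureCounts, and they deposited raw counts for 21 libraries without normalization or a filter. Columns that belong to no sample numbered 0. Total counts limit the precision of genes of few counts, and each member had at least 1162 counts in every library.

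Groups follow the rearing condition given for each sample. A PCA was computed on variance-stabilised counts (DESeq2 1.42.0) of those 500 genes that varied most, and the library farthest from the median on its first component was left out. After TMM normalization and filterByExpr (minimum count 10), edgeR 4.0.16 in R 4.3.3 fitted its quasi-likelihood model with robust estimation. p-values were adjusted by Benjamini-Hochberg over 18146 genes, with a threshold of 0.05. CPM are relative to the normalized total, and log2 CPM had a prior count of 2. The BCV (biological coefficient of variation) was 13.3%. Symbols, positions and exonic lengths (the union of all exons) are from GENCODE M21, which has no entry for 260 of the 55487 genes. Length curves were lowess fits with a span of 0.3.

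The members and lists were chosen with earlier results of these data known. Named are the 10 members, the relatives and Homer partners by list, the 3 highest and 3 lowest of the other postsynaptic density genes, genes overlapping a member, the 5 genes most alike and markers where a library stands apart. Of the Homer partners 1 gene, and of the genes most alike 1 gene, are not reported here. Alternatives were all 21 libraries, DESeq2's Wald test, 2 other filters, DESeq2's size factors, the number range as a term or alone, voom in limma 3.58.1 with a random effect of the set, sums of counts per set, the length slope as a term, the length curve as an offset, and leaving out each library and each set. The computations were tested on simulated data.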

Additional observations from a re-analysis of the deposited data

Results flagged for a closer look

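In 8 MS mice, Dixon's ratio (the gap of the farthest mouse to its neighbour over the range of the group, critical value 0.526) marked 3 measures. For Shank3 the ratio was 0.701, with C2 high (481 CPM, the next MS mouse 382 CPM). For Homer1 it was 0.679, with A1 high (142 CPM, the next 99.4 CPM), and for the immediate early gene score it was 0.615, again with A1 high. Chance marks about 1 in 20 groups, and 24 ratios were computed over levels, scores and both ends.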

How the results depend on the processing

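The median of the 10 scaffold log2 fold changes, -0.05 in the reported fit, ran from -0.10 without C2 to 0.00 in the higher number range alone, with -0.01 without set B. None of the 10 genes was called in 37 of 39, and 2 were called in the lower number range and 2 without set C. The number of genes called, 2 in the reported fit, was 1 over all 21 libraries, 127 with DESeq2, 1 with no filter on low counts, 230 in the lower number range, 0 in the higher number range, 0 with counts summed within sets, 0 without set A, B, D or F, 340 without set C and 1 without set G, and it ranged from 0 to 109 when each mouse was left out (109 without C2 and 109 without C3). The other postsynaptic density genes called, 0 in the reported fit, were 1 with DESeq2, 4 in the lower number range and 7 without set C, and from 0 to 4 when each mouse was left out. The length slope difference ranged from -0.0159 to -0.00227 when each mouse was left out. The relation of Homer1 to the immediate early genes had an r of 0.857 in MS alone and of 0.174 without the 2 mice farthest in score. The cause of these changes was not tested. Across the 39 alternatives the fitted sign turned in 11 for Dlgap3, 3 for Shank3, 3 for Homer2, 2 for Homer1, 1 for Dlgap4 and 1 for Dlg4, all at adjusted p over the threshold, and in 0 for Shank1, Shank2, Dlgap1 and Dlgap2. No paired analysis was possible because whole litters received 1 condition and no label links an MS mouse to an SR mouse. Litters are not named, gene counts do not separate transcript forms, and 7 sets limit what can be said of litters.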
